A study of Mus musculus with 6 samples.

Results

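The set examined here held 10 genes of base excision repair: the glycosylase genes Ung, Tdg, Smug1, Mbd4, Ogg1, Nthl1 and Mpg, and the partner genes Apex1, Xrcc1 and Lig3. They were taken by gene symbol from a table of read counts over 23197 genes. Of the 10, 9 had a row, and all 9 were among the 13234 genes tested. Mpg was not analysed here: all of its exons lie under Nprl3, a gene on the opposite strand, so 0.0% of its exon length is clear of other genes. Ung and Tdg were chosen by their fold change in this same comparison, at ranks 4 and 13 of all genes tested by p. Their differences are therefore a description with no test. The other 7 genes were named for their place in the pathway, and they were tested.

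Base excision repair, as a pathway, removes single damaged or wrong bases from DNA. A glycosylase cuts the base from its sugar, the endonuclease encoded by Apex1 opens the strand at the empty site, a polymerase fills the gap, and the ligase encoded by Lig3 closes it on the scaffold protein encoded by Xrcc1. The glycosylases divide the work by substrate. The products of Ung and Smug1 remove uracil, those of Tdg and Mbd4 remove thymine or uracil mispaired with guanine, those of Ogg1 and Nthl1 remove oxidised bases, and that of Mpg removes alkylated purines. The Tdg product also removes the oxidised forms of methylcytosine that the TET enzymes make, which ties it to the loss of DNA methylation. In arterial smooth muscle the pathway is best known for the repair of oxidised guanine in atherosclerotic plaque.

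The libraries came from mouse primary smooth muscle cells of vessel wall, bought from a supplier and cultured. There were 3 libraries labelled siArid3a, made from cells transfected with siRNA against Arid3a, a gene for an AT-rich DNA-binding protein, and 3 control libraries labelled as negative control. All 6 share the transfection protocol with 24 h of incubation and polyA selection. The labels number the siArid3a treatments #1 to #3, which may be different siRNAs or repeats of the same. An angiotensin II model of the cells is described, but whether these libraries belong to it is not stated. No separate cultures are named, so the p-values cover only library-to-library spread, and that spread may be technical.

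Total counts ranged from 17029735 to 22799935 per library. Arid3a, the targeted gene, was not detectably lower in libraries labelled siArid3a. It had 16.6, 21.5 and 19.8 CPM (counts per 1000000 reads, scaled by library size and composition) in libraries labelled siArid3a 1, 2 and 3. In control libraries 1, 2 and 3 it had 19.5, 16.8 and 22.6 CPM. The log2 fold change of Arid3a was −0.03 (SE 0.13, edgeR adjusted p = 0.943). The directions below are therefore those of the labels and not of measured Arid3a loss. Of the markers of smooth muscle, Cald1 and Acta2 were high in every library, and the 8 markers summed to 2072 to 2475 CPM in libraries labelled siArid3a and 2007 to 2148 CPM in the controls. Of the defining markers, Myh11, the smooth muscle myosin gene, had 30 reads over all 6 libraries. Tagln had at most 1.68 CPM in libraries labelled siArid3a and at most 1.77 CPM in the controls, and 32.1% of its exon length is clear of other genes. The fibroblast markers summed to 1326 to 1683 CPM in libraries labelled siArid3a and 1476 to 1780 CPM in the controls, with 6 of 6 detected and Col1a1 making up most of the sum. Of these, Dcn was lower in every library labelled siArid3a, with 422.1, 378.4 and 312.5 CPM in libraries labelled siArid3a 1, 2 and 3, against 596.9, 511.5 and 448.0 CPM in control libraries 1, 2 and 3, and its part in the results was not tested. The endothelial markers (6 of 6 detected, Tie1 and Cdh5 near 0) summed to 16.6 to 25.0 CPM in libraries labelled siArid3a and 20.5 to 30.2 CPM in the controls. The macrophage markers (5 of 6 with a row, Adgre1 and Ptprc near 0) summed to 9.14 to 12.9 CPM in libraries labelled siArid3a and 11.1 to 14.8 CPM in the controls, and the epithelial markers (6 of 6 detected, Epcam with 1 read in all) to 4.27 to 4.86 CPM in libraries labelled siArid3a and 4.69 to 7.03 CPM in the controls. The group ranges overlapped in all 5 lists. In bulk RNA, a change in the share of cells and a change in RNA per cell cannot be told apart.

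The uracil glycosylase gene Ung was higher in every library labelled siArid3a. Ung (ENSMUSG00000029591, mm10 chromosome 5, 114130386 to 114139323, plus strand) had 369, 288 and 324 reads in libraries labelled siArid3a 1, 2 and 3, against 205, 233 and 183 reads in control libraries 1, 2 and 3. Scaled, that was 16.1, 16.9 and 17.0 CPM in libraries labelled siArid3a and 10.7, 10.6 and 10.6 CPM in the controls. The groups did not overlap, and the lowest library labelled siArid3a lay 50.7% above the highest control. Of all genes tested, 9.66% had every library labelled siArid3a above every control. Ung averaged 16.7 ± 0.499 CPM in libraries labelled siArid3a and 10.6 ± 0.0568 CPM in the controls (SD, n = 3 each), a log2 fold change of 0.65 (SE 0.12) or 1.57-fold. The control libraries lay closer together than read counting alone would place them, with a coefficient of variation of 0.535% against a counting error of 6.95% for a library of that count. The control SD of Ung is thus smaller than its counting error. The exons of Ung are clear of other genes over their whole length. The gene makes a mitochondrial and a nuclear protein from separate starts, which a count per gene does not separate.

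The thymine DNA glycosylase gene Tdg was also higher in every library labelled siArid3a, with a wider spread among controls. Tdg (ENSMUSG00000034674, chromosome 10, 82629828 to 82650799, plus strand) had 770, 652 and 690 reads in libraries labelled siArid3a 1, 2 and 3, against 398, 541 and 480 reads in the controls. The scaled values were 33.6, 38.2 and 36.3 CPM in libraries labelled siArid3a and 20.7, 24.5 and 27.8 CPM in the controls. The groups did not overlap, and the gap between them was 20.8% of the highest control, set by control library 3. Tdg averaged 36.0 ± 2.3 CPM in libraries labelled siArid3a and 24.3 ± 3.54 CPM in the controls (SD, n = 3 each), a log2 fold change of 0.56 (SE 0.11) or 1.48-fold. Its exons are clear of other genes over 93.2% of their length. The processed pseudogene Tdg-ps, whose sequence resembles Tdg, had 0 to 3 reads per library, so few reads were assigned to that copy.

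**Figure D1:**
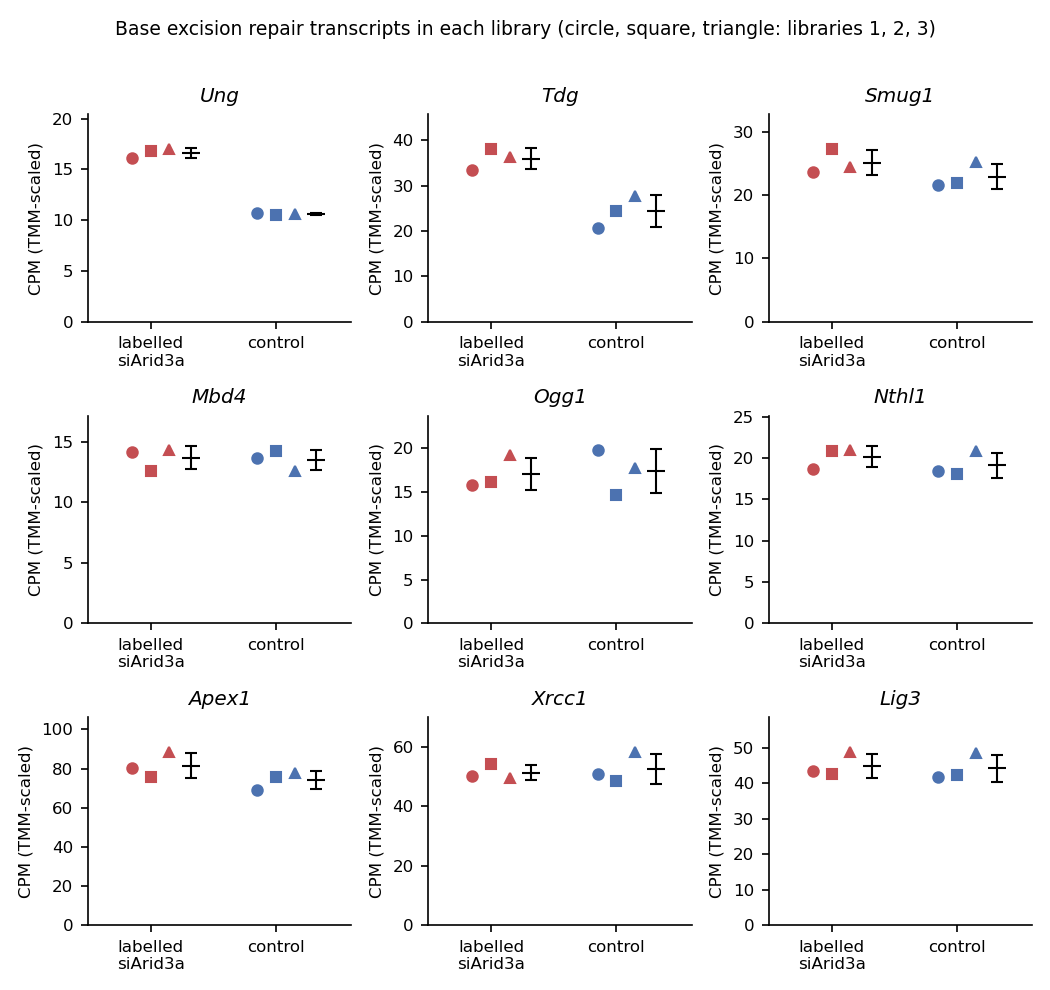
Scaled CPM (vertical axes from 0, a scale for each gene) of the 9 members with a row, in the 3 libraries labelled siArid3a (red, left) and the 3 control libraries (blue, right), with the mean and SD of each group in black. The groups are apart for Ung and Tdg and overlap for the other 7 genes.

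The promoters of Ung and Tdg are shown because these are the members that were higher together, and the letters they share can be compared. Each window holds 250 bases before and 50 bases from the RefSeq start on GRCm38.p6, the assembly of mm10, written along the strand of the gene. Capitals mark matches on either strand to any of the motifs searched, which were the E2F sites TTTCCCGC and TTTGGCGC, the cyclic AMP response element TGACGTCA, the CCAAT box, the GC box GGGCGG, the E-box CACGTG and the AT-rich hexamer ATTAAA. A match is a description of letters, not a binding site.
Ung, chr5:114130185-114130484, plus strand: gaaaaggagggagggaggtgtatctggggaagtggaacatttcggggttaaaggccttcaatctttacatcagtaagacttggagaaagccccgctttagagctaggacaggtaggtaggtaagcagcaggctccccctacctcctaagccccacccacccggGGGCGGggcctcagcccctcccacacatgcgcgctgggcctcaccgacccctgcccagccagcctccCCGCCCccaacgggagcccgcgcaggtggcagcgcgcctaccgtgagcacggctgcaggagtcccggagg
Tdg, chr10:82629588-82629887, plus strand: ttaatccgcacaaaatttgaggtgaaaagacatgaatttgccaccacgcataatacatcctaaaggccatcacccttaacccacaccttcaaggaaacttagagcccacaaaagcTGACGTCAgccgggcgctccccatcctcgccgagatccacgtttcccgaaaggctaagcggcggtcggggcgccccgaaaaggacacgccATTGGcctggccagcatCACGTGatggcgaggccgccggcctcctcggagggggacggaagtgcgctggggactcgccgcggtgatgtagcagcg

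No motif searched was found in both windows, and starts elsewhere in the genes were not searched. Ung held the GC box at 2 places and no other motif, while Tdg held the cyclic AMP response element, the CCAAT box and the E-box once each. The cyclic AMP response element was in 1 of the 10 members' windows and in 1.79% of the 32851 windows of all genes. The CCAAT box was in 8 of 10 members' windows and 37.4% of all, the GC box in 8 of 10 and 35.7%, and the E-box in 3 of 10 and 7.15%. Both E2F sites were in 0 of 10, against 1.07% and 0.514% of all windows. The AT-rich hexamer, of the kind that ARID proteins bind, was in the windows of Lig3 and Smug1 and in 13.9% of all, and not in those of Ung and Tdg. The Ung window had 16 CG dinucleotides and the Tdg window 26, where the median over all windows was 7. Over all members the count ran from 7 in Xrcc1 to 31 in Apex1. The motif shares were not matched for this count, and its part in them was not tested.

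The next question was whether the other uracil and mismatch glycosylase genes were higher too. Smug1 (chromosome 15), whose enzyme also removes oxidised uracil, had 23.7, 27.3 and 24.4 CPM in libraries labelled siArid3a 1, 2 and 3, against 21.7, 22.0 and 25.2 CPM in control libraries 1, 2 and 3. The groups overlapped through control library 3, and the log2 fold change came to 0.13 (SE 0.11, 95% interval −0.10 to 0.36, edgeR adjusted p = 0.606). Mbd4 (chromosome 6), whose protein carries a methyl-CpG-binding domain beside its glycosylase, had 14.2, 12.6 and 14.3 CPM in libraries labelled siArid3a and 13.7, 14.2 and 12.6 CPM in the controls. Its groups lay on top of each other, with a log2 fold change of 0.02 (SE 0.12, 95% interval −0.25 to 0.28, edgeR adjusted p = 0.959). The exons of Mbd4 are clear of other genes over 65.4% of their length.

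Ratios between genes within a library do not depend on how libraries are scaled. There were 0.680, 0.617 and 0.698 Ung reads per Smug1 read in libraries labelled siArid3a 1, 2 and 3, against 0.493, 0.480 and 0.421 in control libraries 1, 2 and 3. The Tdg reads per Mbd4 read were 2.37, 3.03 and 2.54 in libraries labelled siArid3a and 1.51, 1.72 and 2.21 in the controls. The Ung reads per Tdg read overlapped, at 0.464 ± 0.0195 in libraries labelled siArid3a and 0.442 ± 0.0677 in the controls (SD, n = 3 each). Of the reads of Ung, Tdg, Smug1 and Mbd4 together, Ung made up 18.2% ± 0.406 in libraries labelled siArid3a and 14.9% ± 1.04 in the controls, and Tdg made up 39.3% ± 0.92 in libraries labelled siArid3a and 34.0% ± 2.75 in the controls (SD, n = 3 each). These shares sum to the whole within a library, so those of Smug1 and Mbd4 were lower, and they use the differences for which Ung and Tdg were chosen.

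The glycosylase genes for oxidised bases did not pass the edgeR test either, as was so for all genes tested, Ung and Tdg included. Ogg1 (chromosome 6), whose enzyme removes oxidised guanine, had 15.8, 16.2 and 19.2 CPM in libraries labelled siArid3a, against 19.7, 14.7 and 17.7 CPM in the controls. Control libraries 1 and 2 marked the highest and the lowest of the 6 values, and the log2 fold change came to −0.03 (SE 0.13, 95% interval −0.31 to 0.26, edgeR adjusted p = 0.945). Nthl1 (chromosome 17), for oxidised pyrimidines, had 18.7, 20.9 and 20.9 CPM in libraries labelled siArid3a and 18.4, 18.0 and 20.9 CPM in the controls. The library labelled siArid3a 1 lay among the controls, and the log2 fold change came to 0.08 (SE 0.11, 95% interval −0.16 to 0.32, edgeR adjusted p = 0.790).

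Nor did the genes of the steps after base removal pass this test, which 0.0% of all genes tested passed. Apex1 (chromosome 14), the endonuclease gene for empty sites, had 80.2, 75.9 and 88.4 CPM in libraries labelled siArid3a, against 68.9, 75.8 and 77.6 CPM in the controls. The library labelled siArid3a 2 lay inside the control range, and the log2 fold change came to 0.14 (SE 0.09, 95% interval −0.05 to 0.32, edgeR adjusted p = 0.470). Only 38.3% of the exon length of Apex1 is clear of other genes, since Pip4p1 covers the rest from the other strand. Xrcc1 (chromosome 7), the scaffold gene, had 50.1, 54.2 and 49.7 CPM in libraries labelled siArid3a and 50.9, 48.7 and 58.3 CPM in the controls. All 3 values labelled siArid3a were within the control range, at a log2 fold change of −0.04 (SE 0.09, 95% interval −0.23 to 0.16, edgeR adjusted p = 0.894). Lig3 (chromosome 11), the ligase gene, had 43.4, 42.5 and 48.8 CPM in libraries labelled siArid3a and 41.8, 42.3 and 48.6 CPM in the controls, with a log2 fold change of 0.02 (SE 0.10, 95% interval −0.18 to 0.23, edgeR adjusted p = 0.932). The libraries numbered 3 gave the highest Lig3 value of each group. Its exons are clear of other genes over 74.9% of their length.

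Over the 7 tested members, 0 passed the edgeR test at an adjusted p under 0.05, where 0.0% of all genes tested did, and 0 passed at an unadjusted p under 0.05, where 14.9% of all genes did. DESeq2 also called 0 of the 7, where it called 1.69% of all genes, and called 0.809% upward. With limma-voom 0 of the 7 were called, where it called 0 of all genes. Groups were apart in 0 of the 7, where 20.0% of all genes tested had groups apart, 9.66% with every library labelled siArid3a higher and 10.4% with all lower. The 7 log2 fold changes ran from −0.04 to 0.14, with 5 of 7 above 0, where 48.9% of all genes lay above 0, and with a median of 0.02, beside −0.01 over all genes tested. The highest upper bound among the 7 intervals, that of Smug1, was 1.28-fold. Differences within these intervals were not detectable with 3 libraries a group.

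**Figure D2:**
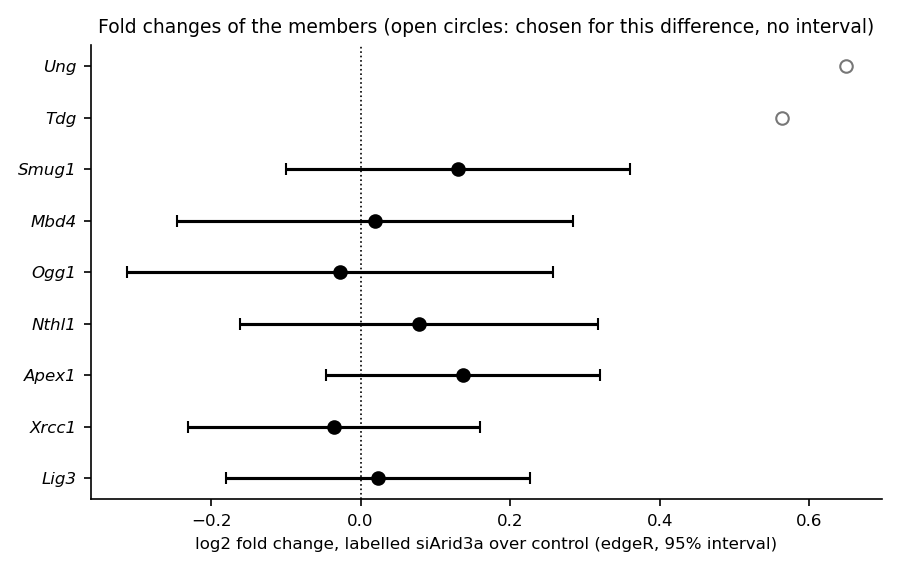
Log2 fold changes of the 9 members (horizontal axis, libraries labelled siArid3a over control) with edgeR 95% intervals for the 7 that were tested. The intervals of these 7, drawn in black, include 0 and end at or below 0.36, while Ung and Tdg, drawn open and with no interval because they were chosen for this difference, lie at 0.65 and 0.56.

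The libraries did not move all members alike. Relative to the control mean on the log2 scale, Ung lay at 0.60, 0.66 and 0.68 in libraries labelled siArid3a 1, 2 and 3, and Tdg at 0.47, 0.66 and 0.58. The median of the other 7 members lay at −0.02, 0.04 and 0.13 in those libraries and at −0.05, −0.06 and 0.13 in control libraries 1, 2 and 3. Control library 3 had the highest control value of Tdg, Smug1, Nthl1, Apex1, Xrcc1 and Lig3, but not of Ung, Mbd4 or Ogg1. Leaving out control library 3, the groups were apart for 6 of the 9 members, with Smug1, Nthl1, Apex1 and Lig3 added to Ung and Tdg, and edgeR called 0 of the 7. In that setting 32.7% of all genes tested had groups apart, 16.3% with every library labelled siArid3a higher.

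Per length, Apex1 was by far the most abundant member and Ung among the least. Apex1 had 57.3 ± 4.49 CPM per kb of exon in libraries labelled siArid3a and 52.1 ± 3.21 CPM per kb in the controls (SD, n = 3 each). Below it in the controls came Xrcc1 at 9.03, Ogg1 at 7.95, Nthl1 at 7.02 and Lig3 at 6.07 CPM per kb. Neighbours among these genes had overlapping ranges, while the range of Lig3 lay apart from that of Tdg, the next gene. Then came Tdg at 4.53 and Smug1 at 3.74 CPM per kb, which overlapped, and then Mbd4 at 2.56 and Ung at 1.94 CPM per kb, each apart from its neighbour. In the libraries labelled siArid3a, Tdg at 6.70 CPM per kb stood above Lig3 at 6.17, with overlapping ranges, and Ung at 3.05 stood above Mbd4 at 2.59, with ranges apart. The order depends on the length used: per kb of exon outside other genes, Ung was the lowest of the 9 in both groups, at 3.05 ± 0.0912 CPM per kb in libraries labelled siArid3a and 1.94 ± 0.0104 CPM per kb in the controls (SD, n = 3 each). Counts that include intronic reads would change these levels between genes.

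**Figure D3:**
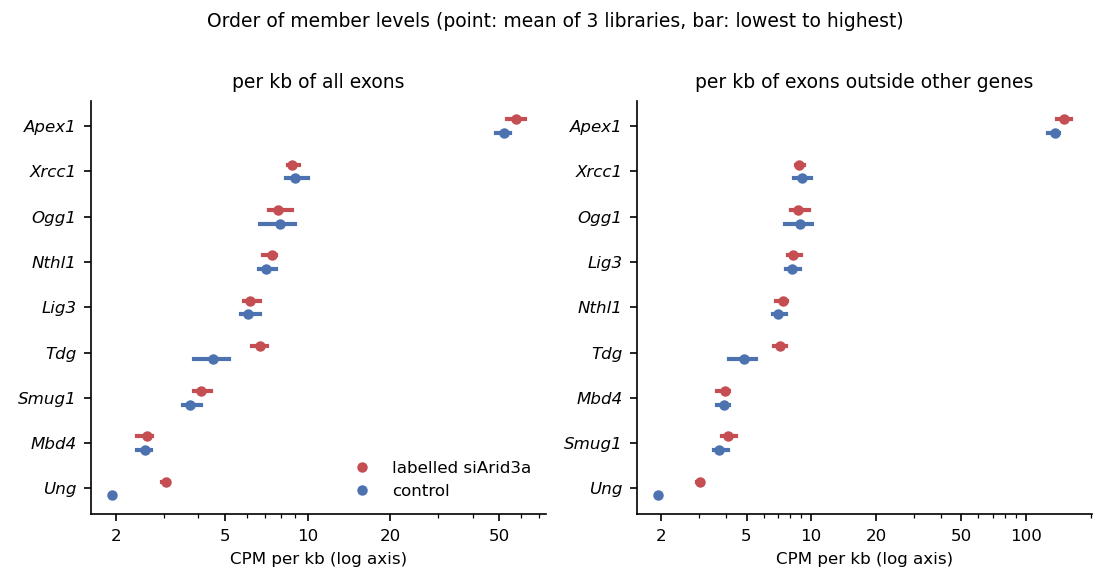
Levels of the 9 members in CPM per kb (log axes), per kb of all exons on the left and of exons outside other genes on the right, as means (points) and ranges (bars) of the 3 libraries labelled siArid3a (red, upper) and the 3 control libraries (blue, lower). Apex1 stands above the rest in both panels, and Ung is the lowest control value in both.

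The nearest tested genes beside Ung and Tdg on the chromosome did not pass the edgeR test, which 0.0% of all genes tested passed. Not passing therefore does not set them apart from Ung and Tdg. Alkbh2, a DNA alkylation repair gene that starts 2167 bases before Ung on the other strand, had 3.27, 2.57 and 2.05 CPM in libraries labelled siArid3a and 1.61, 1.45 and 2.37 CPM in the controls. The groups overlapped at 31 to 75 reads per library, and the log2 fold change came to 0.56 (SE 0.30, edgeR adjusted p = 0.392). Acacb on the other side was at 0.07 (SE 0.21, edgeR adjusted p = 0.914). Glt8d2, which shares 367 bases with the end of Tdg on the other strand, had 18.2, 18.1 and 14.6 CPM in libraries labelled siArid3a and 20.4, 18.8 and 18.2 CPM in the controls. Every library labelled siArid3a was below every control, but the groups almost touched. The library labelled siArid3a 1 had 18.22 CPM and control library 3 had 18.24 CPM. The log2 fold change of Glt8d2 came to −0.17 (SE 0.12, edgeR adjusted p = 0.533). The gene before Tdg, 1190007I07Rik, was at 0.27 (SE 0.17, edgeR adjusted p = 0.465).

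The profiles most like that of Ung over the 6 libraries, by the root mean square difference of log2 values after each gene's own mean was removed, were those of Plch1 (0.07), Unc5c (0.08) and Fzd3 (0.09). For Tdg they were Bmpr1b (0.07), the small RNA gene Gm24598 (0.09), which had under 1 CPM, and Ppp1r15a (0.10). Tdg was in place 13 of 13233 genes for Ung, and Ung in place 28 for Tdg, at a difference of 0.14. Both were chosen for a like difference between the groups, which by itself brings their profiles close. Among the other members Apex1 was closest to Ung, at 0.27 and place 1876, and Smug1 closest to Tdg, at 0.23 and place 692.

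The question was then put to the wider pathway. Among 108 tested genes in 8 lists of base excision repair and related processes, edgeR called 0, where it called 0.0% of all genes tested. At an unadjusted p under 0.05 there were 6 higher and 6 lower, where 7.36% of all genes tested were higher and 7.57% lower. Of the 108, 68 had a log2 fold change above 0, where 48.9% of all genes tested did. Every library labelled siArid3a was above every control in 13 of them, where 9.66% of all genes tested were. Every one was below in 6, where 10.4% of all genes tested were. DESeq2 called 1 of the 108 higher, Gadd45a, and 1 lower, Tet2, where it called 0.809% of all genes higher and 0.877% lower, so the count in the lists was near that over all genes.

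Of the other glycosylase genes 1 of 4 had a log2 fold change above 0, and the median was −0.02. Neil3 and Neil1, whose enzymes remove oxidised bases, had −0.03 (SE 0.14) and −0.19 (SE 0.20). Mutyh, whose enzyme removes adenine opposite oxidised guanine, had 5.67 ± 0.323 CPM in libraries labelled siArid3a and 4.46 ± 0.334 CPM in the controls (SD, n = 3 each), groups that did not overlap, with a log2 fold change of 0.35 (SE 0.18, edgeR adjusted p = 0.379). The end processing and strand break genes had 6 of 12 above 0 and a median of −0.0048. The nick sensor gene Parp1 and the chromatin protein gene Hmgb1 had 0.03 (SE 0.07) and 0.17 (SE 0.10). Tdp2, whose enzyme frees DNA ends from bound topoisomerase, had 51.4 ± 3.82 CPM in libraries labelled siArid3a and 40.5 ± 5.29 CPM in the controls (SD, n = 3 each), with a log2 fold change of 0.34 (SE 0.10, edgeR adjusted p = 0.163).

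The long-patch repair and replication genes had 12 of 19 above 0, 1 of them at an unadjusted p under 0.05, and a median of 0.03. Pcna, the sliding clamp gene, had a log2 fold change of 0.20 (SE 0.09, edgeR adjusted p = 0.307), and the single-strand binding protein genes Rpa1 and Rpa2 had 0.03 (SE 0.07) and 0.17 (SE 0.08). Of the genes that control uracil and the nucleotide pool, 9 of 14 were above 0 among those tested, at a median of 0.07. Rrm1 and Rrm2, subunits of the enzyme that makes deoxynucleotides, had 0.15 (SE 0.08) and 0.21 (SE 0.08). In both, every library labelled siArid3a lay above every control. The cytidine deaminase genes Apobec1 and Apobec3 had lower values, Apobec1 with 67.7 ± 2.96 CPM in libraries labelled siArid3a and 80.7 ± 3.21 CPM in the controls, and Apobec3 with 15.0 ± 2.37 CPM in libraries labelled siArid3a and 20.0 ± 1.63 CPM in the controls (SD, n = 3 each). Their groups did not overlap, and the edgeR adjusted p was 0.173 for Apobec1 and 0.174 for Apobec3.

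The genes of cytosine methylation and oxidation, the process that makes substrates for the Tdg product, had 6 of 10 above 0 and a median of 0.01. Tet2, whose enzyme oxidises methylcytosine, had 12.0, 10.7 and 7.72 CPM in libraries labelled siArid3a 1, 2 and 3, against 14.5, 16.9 and 16.6 CPM in control libraries 1, 2 and 3. Every library labelled siArid3a lay below every control, with a log2 fold change of −0.65 (SE 0.16, edgeR adjusted p = 0.114, DESeq2 adjusted p = 0.0184). Gadd45a, a stress gene also studied in DNA demethylation, had 88.5, 85.5 and 101.8 CPM in libraries labelled siArid3a and 63.5, 75.2 and 69.6 CPM in the controls, with a log2 fold change of 0.41 (SE 0.09, edgeR adjusted p = 0.112, DESeq2 adjusted p = 0.0151). Its exons are clear of other genes over 51.3% of their length. Tet1, named after its value was seen, had −1.23 (SE 0.42, edgeR adjusted p = 0.198). The maintenance methylation genes Dnmt1 and Uhrf1 had 0.01 (SE 0.09) and 0.05 (SE 0.08).

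The lists of other repair pathways also held 0 genes called by edgeR. Mismatch repair genes had 6 of 8 above 0, with 0 at an unadjusted p under 0.05, and a median of 0.06, with the mismatch recognition gene Msh6 at 0.06 (SE 0.08), and Pms1 at 0.27 (SE 0.17) and Mlh3 at 0.12 (SE 0.12). Nucleotide excision repair genes had 14 of 20 above 0 and a median of 0.05, with Ddb1 at −0.03 (SE 0.08), Rad23b at 0.12 (SE 0.08) and the repair helicase gene Ercc3 at −0.21 (SE 0.08), beside Gtf2h1, of the same complex, at 0.21 (SE 0.08). Double-strand break repair genes had 14 of 21 above 0 and a median of 0.03, with Brca1 at −0.0019 (SE 0.08), the end resection gene Rbbp8 at 0.25 (SE 0.09) and the end-binding Ku gene Xrcc5 at −0.21 (SE 0.10). The edgeR adjusted p of the mismatch, excision and break repair genes named was 0.222 or more.

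**Figure D4:**
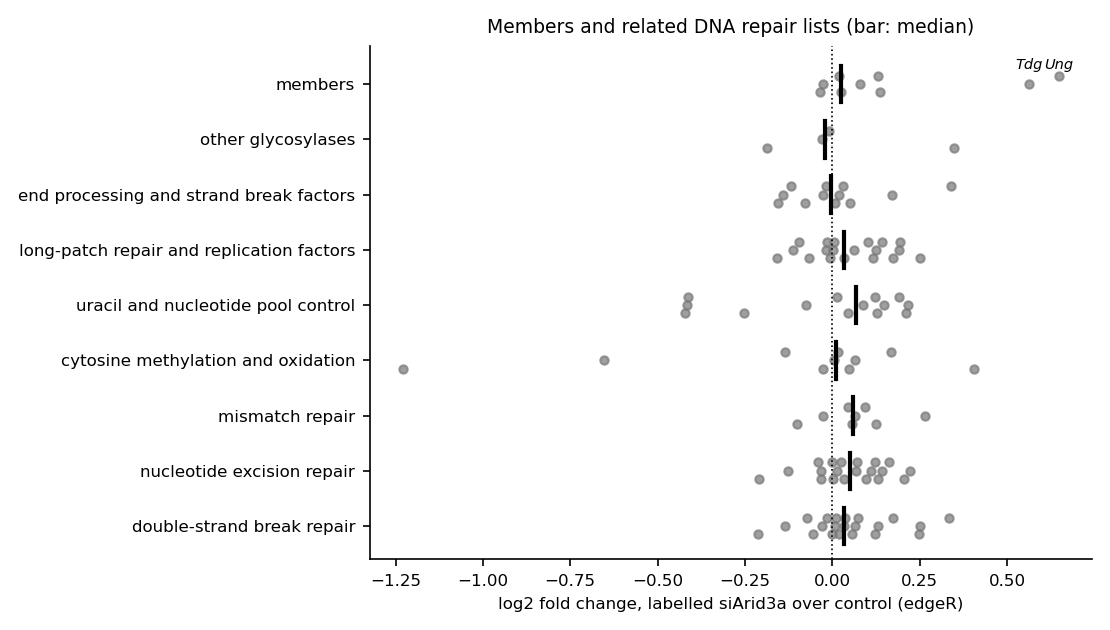
Log2 fold changes (horizontal axis, libraries labelled siArid3a over control) of the 9 members and of 108 genes in 8 related lists, as points, with the median of each list as a bar. The bar of the members leaves out Ung and Tdg and lies at 0.02, and the list medians lie between −0.02 and 0.07.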

How the data were processed

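The deposited values are raw counts of reads for each gene in 6 libraries. Per the submitters' processing notes, the alignment to mm10 used STAR 2.7.3a and the counting used featureCounts. Annotation and strand setting: not given in the sources used here. The deposited length equals the whole gene span in all 23197 rows, and of 1489 protein-coding genes with all exons under other genes 13.8% have a row, against 80.0% of the rest, so reads in shared spans appear to be lost and intronic reads may be counted. Exons came from GENCODE M21, promoters from RefSeq (GRCm38.p6).

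Genes were kept by filterByExpr, TMM scaling was applied, and the main test was glmQLFTest, the quasi-likelihood test in edgeR 4.0.16 (R 4.3.3), with Benjamini-Hochberg adjustment over all 13234 genes tested and a threshold of 0.05. SE is the absolute log2 fold change over the root of F. DESeq2 1.42.0, limma-voom (limma 3.58.1), other scalings and filters, a depth term, a GC and length correction, a replicate block and each library left out were the alternatives. On counts simulated for this comparison with 13234 genes, edgeR recovered 74% of 50 genes changed 1.5-fold and 88% of 50 changed 2-fold. It also called 9 unchanged genes. Each gene was simulated on its own, without shifts shared by genes of a library. These shares therefore need not hold in the real libraries, where edgeR called 0 genes. Every pair of libraries of a group differed by more than sampling noise (chi-square per degree of freedom 5.72 to 20.2).

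The members and lists were chosen with earlier results of these data known. The rule for named genes took all members, Arid3a, the 2 most abundant genes of each repair list and the 2 with the smallest p, and the 3 nearest profiles of Ung and of Tdg. Outside that rule, the nearest tested genes beside Ung and Tdg, genes that overlap a member, a pseudogene of Tdg, cell type markers and Tet1 were also named. Some genes that this rule names are not reported here.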

Additional observations from a re-analysis of the deposited data

How the results depend on the processing

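The 7 tested members were called under 0 of the 17 alternatives, and their lowest adjusted p was 0.188, for Apex1. In 10 of the 17, however, 0 of all genes were called, so those settings do not set the members apart. Ung and Tdg kept their direction in all 17, from 0.63 to 0.68 and from 0.46 to 0.67 on the log2 scale. Both were chosen for this difference in the same libraries, so the kept direction and the calls below describe it and do not test it. edgeR called 0 members with all libraries, while 2, Ung and Tdg, were called by DESeq2 (223 of all genes), without a filter on low counts (439), with GC and length corrected (487) and with the depth term (143). With 1 library left out, 0 to 2 members and 0 to 135 of all genes were called: 135 without control library 2, 94 without control library 3 (2 members each) and 37 without the library labelled siArid3a 2 (0 members). In the related lists 2 genes were called by DESeq2, and 0 to 2 with 1 library left out (Gadd45a and Tdp2 without control library 2). Groups were apart for 2 to 6 members with 1 library left out, where 25.2% to 36.2% of all genes had groups apart. The median of the 7 ranged from −0.01 to 0.10. Per kb of exon outside other genes, 4 of 9 members kept their place in the order in libraries labelled siArid3a and 5 of 9 in the controls.

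The sign of members near 0 turned. With GC and length corrected, Mbd4 was at −0.0068, Ogg1 at 0.050 and Xrcc1 at 0.058. With 1 library left out, Mbd4 ran from −0.027 (without control library 3) to 0.075, Ogg1 from −0.13 to 0.076 (without control library 1), Xrcc1 from −0.084 to 0.044 (without control library 3) and Lig3 from −0.037 (without the library labelled siArid3a 3) to 0.097. The cause was not tested.

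Same-numbered libraries did not deviate together (correlations across genes of 0.03, −0.18 and −0.08), not every library correlated best with its own number, and the fit with a replicate block called 0 members and 0 genes, with a median of 0.02 for the 7. At 183 to 369 reads per library for Ung, the counting error of a single value was 5.53% in libraries labelled siArid3a and 6.95% in the controls.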
